A study of Bos taurus with 24 samples.

Results

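The net change of bovine satellite cells grown alone was measured between 2 groups of RNA-seq libraries, chosen by their labels: 4 from monoculture at 72 h of differentiation and 4 from monoculture in proliferation, 8 of the 24 labelled libraries of the series. Satellite cells are the resident stem cells of skeletal muscle. These were wild-type cells from the longissimus dorsi, cultured as a mixture of 3 lines at passage 3 and seeded at 8000 cells/cm2. The 72 h cells had spent 72 h in high glucose DMEM with 10% horse serum, the medium that starts differentiation, while the proliferating cells were on day 5 in high glucose DMEM with 20% fetal bovine serum. Another 4 monoculture libraries, taken 24 h after the change of medium, are used to say when a gene moved. Satellite cells kept across a 0.4 µm pore membrane from fibroblasts at passage 10 (coculture, 4 libraries at 72 h and 4 in proliferation) serve as the most similar comparison. The series asks how fibroblasts acting through the medium change the growth and differentiation of satellite cells, and the monoculture course is the course without them. The labels do not call the replicates separate cultures, so a p-value here reflects only how far these samples scatter, and that scatter may be technical. All 12 monoculture libraries were in lane 6. A code in the labels, whose meaning is not given, is 1 in the 72 h and 24 h monoculture libraries and 2 in the proliferation libraries, so it cannot be told apart from the change of medium.

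When growth serum is withdrawn, myoblasts derived from satellite cells typically leave the cell cycle, switch on the late myogenic regulators and contractile proteins, and fuse into multinucleated myotubes. Cell cycle exit shuts down the genes of DNA replication, which act in S phase, and those of mitosis, which act from G2 onward. Fibroblasts and fibro-adipogenic progenitors, which often accompany such cultures, instead build collagen-rich extracellular matrix, and quiescent cells of either kind can become sources of matrix, complement and growth factor-binding proteins.

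The label was checked against 7 markers of satellite cells. NCAM1, ITGA7 and DES were among the 11937 genes listed, while PAX7, MYF5, MYOD1 and CDH15 were not, nor were MYOG, MYMK, MYH3 and MYH8. Every gene listed has at least 6 counts in every labelled library, so a gene silent in any of them would not appear, and the levels of these genes were not analysed here. Markers of fibroblasts and fibro-adipogenic progenitors were listed in 22 of 26 cases and summed to 93100 to 104500 CPM (counts scaled per library with TMM factors) in the 72 h libraries, against 41070 to 43340 CPM in the proliferation libraries. COL1A1 and COL3A1 made up most of these sums. Of the 22 markers 10 rose and 7 fell (8 and 11 with library sizes alone), and their median net log2 change was 0.03. For smooth muscle and pericyte markers, 21 of 24 were listed (33280 to 38000 CPM at 72 h, against 30480 to 31010 CPM in proliferation). Leukocyte markers were near 0, with 2 of 17 listed and a sum of 0.959 to 2.22 CPM at 72 h, against 1.32 to 1.49 CPM in proliferation, and of 14 endothelial markers 4 were listed (41.1 to 59.6 CPM, against 78.5 to 86.4 CPM). The part of other cell types in the results was not tested, and in bulk RNA a change in the number of cells of a type and a change in RNA per cell cannot be told apart.

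Library totals were 14967973 to 22593444 counts at 72 h, 16222777 to 23866460 at 24 h and 14475735 to 18205918 in proliferation. The first principal component of the monoculture libraries held 62.2% of the variance and set the 3 groups in the order of time, and the second, with 22.3%, set the 24 h libraries apart from the other two groups. Within the 72 h group the nuclear ribosomal RNA genes took 2.14% and 1.76% of counts in replicates 3 and 4, against 0.590% and 0.284% in replicates 1 and 2, and 1.23 to 1.40% in proliferation. Replicate 3 was also the library that lay alone most often: it was far from the other three 72 h libraries in 359 of 11937 genes, against 96 to 121 for each of those. A count of single libraries cannot show 2 apart from the other 2. On the second component replicates 1 and 2 lay at 8.0 and 8.6, and replicates 3 and 4 at 14.7 and 13.8. Chi-square per degree of freedom between 2 libraries was 5.80 for replicates 1 and 2 and 17.3 for replicates 3 and 4. Across these pairs it was 34.4 to 74.5, against 2.16 to 3.97 among proliferation libraries. The 72 h group thus held 2 unlike pairs, for a reason not tested. Counts of genes in a list that change by over 1.5 times without replicates 3 and 4 are given beside the list.

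Of the 11937 genes tested, 8957 (75.0%) differed between 72 h and proliferation at an adjusted p under 0.05 (edgeR quasi-likelihood test, Benjamini-Hochberg), 4494 of them higher at 72 h (37.6%) and 4463 lower (37.4%). Most of these changes were small, with a median size of 0.52 on the log2 scale, so that a share of called genes near 75.0% says nothing about a gene group. A rise of at least 2-fold was called for 768 genes (6.43%) and a fall of at least 2-fold for 622 (5.21%). At 8-fold the counts were 49 and 7. The 4 libraries of 1 group lay wholly above or below the 4 of the other in 7873 genes (66.0%). Without composition factors, using library sizes alone, the median of all genes shifted by -0.32 and the called genes split into 2344 higher and 6935 lower (25.3% higher, against 50.2% with TMM factors), with 397 rises and 1429 falls of at least 2-fold. The levels and fold changes below are relative to the TMM scale, and directions that turn with library sizes alone are named as such.

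Collagen genes took a larger share of all counts at 72 h, 15.7% ± 0.352 against 9.28% ± 0.220 in proliferation, with no overlap (SD, n = 4; exact two-sided permutation test, adjusted p = 0.0343 over 6 shares, from p = 0.0286, the smallest that 4 against 4 can give). The 10 genes with the highest mean share over the libraries of both groups held 23.2% ± 1.16 of counts at 72 h and 14.9% ± 0.109 in proliferation. Since their levels chose them, these values are a description. The share of cytosolic ribosomal protein genes was 3.34% ± 0.295 at 72 h and 4.70% ± 0.141 in proliferation (exact permutation adjusted p = 0.0343). All shares are of counts without TMM factors. On the TMM scale the ribosomal protein genes summed to 34990 to 39690 CPM at 72 h and 40920 to 43340 CPM in proliferation. The share of the nuclear ribosomal RNA genes was 1.20% ± 0.898 at 72 h and 1.32% ± 0.0832 in proliferation, a difference within the spread of the 72 h libraries (exact permutation adjusted p = 0.8).

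The 15 largest rises included the immediate early genes EGR1, NR4A1 and FOS and several genes of secreted proteins. EGR1 (ENSBTAG00000010069, chromosome 7 at 49826480 to 49830253; the files name no genome build), a zinc finger transcription factor induced within minutes by growth factor signalling, was at 229, 181, 220 and 181 CPM in the 72 h libraries, against 2.48, 3.09, 3.17 and 3.58 CPM in the proliferation libraries. Its log2 fold change was 6.03 ± 0.12 (SE; edgeR adjusted p = 2.02e-27), 65.1-fold, and at 24 h, at 2.69 ± 0.755 CPM (SD, n = 4), it did not pass the test. NR4A1, an orphan nuclear receptor of the same response, was at 368, 296, 266 and 308 CPM at 72 h, against 8.76, 7.73, 7.97 and 7.70 CPM in proliferation (log2 5.27 ± 0.092). FOS, a subunit of the transcription factor AP-1, was at 590, 550, 245 and 451 CPM at 72 h, against 23.6, 21.3, 21.2 and 22.4 CPM in proliferation (log2 4.38 ± 0.16), and DUSP5, a nuclear phosphatase of ERK, rose by a log2 of 4.53 ± 0.24. In FOS and DUSP5 the lowest 72 h library was replicate 3, still far above every proliferation library.

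ANGPTL4, a secreted inhibitor of lipoprotein lipase, was at 189, 178, 149 and 177 CPM at 72 h, against 7.51, 6.73, 6.81 and 7.06 CPM in proliferation (log2 4.62 ± 0.079, adjusted p = 6.70e-29), and it had already reached 93.5 ± 1.16 CPM (SD) at 24 h. The other secreted proteins among the 15 largest rises were SFRP4, an extracellular Wnt antagonist (log2 4.60 ± 0.23), MGP, the matrix Gla protein that inhibits calcification (4.46), GPX3, the extracellular glutathione peroxidase (4.43), aggrecan, ACAN (4.24), and the cytokine IL6 (4.11 ± 0.40). SFRP4 stood at 120 CPM in 72 h replicate 3 and at 48.8 to 57.5 CPM in the other three 72 h libraries, all above the 2.54 to 3.29 CPM of proliferation. CH25H, which makes 25-hydroxycholesterol, a suppressor of sterol synthesis, rose by 4.92 ± 0.14 on the log2 scale. RFTN1, a lipid raft protein (4.71), NTNG2, a membrane-anchored netrin (4.63), the carbonic anhydrase CA13 (4.31) and KCNE4, a potassium channel subunit (4.23), complete the set, whose rises run from 17.3-fold to 65.1-fold with an adjusted p of at most 1.02e-10. Of the 15, 6 moved late, 7 in both steps and 2 turned after a fall at 24 h.

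Most of the largest falls were of cell cycle genes, and 2 were of lipid enzymes. SCD (ENSBTAG00000055207, chromosome 26 at 21263976 to 21279185), the desaturase that makes oleic and palmitoleic acid, was at 4.16, 3.10, 3.41 and 3.62 CPM at 72 h, against 41.1, 44.6, 35.0 and 43.2 CPM in proliferation (log2 -3.51 ± 0.12, adjusted p = 1.68e-21), 11.4 times lower. KNL1 (ENSBTAG00000053398, chromosome 10 at 36179483 to 36243574), a scaffold of the kinetochore, was at 4.06, 4.63, 3.54 and 4.21 CPM at 72 h, against 42.9, 41.1, 37.5 and 38.6 CPM in proliferation (log2 -3.28 ± 0.11). ERCC6L, a helicase of anaphase DNA bridges, fell by 3.40 on the log2 scale, CEP55, needed for the final cut between daughter cells, by 3.13, and the spindle checkpoint kinase TTK by 3.07. SHCBP1 (-2.98), the kinetochore motor CENPE (-2.88), the repressor E2F8 (-2.85), OIP5, which helps load the centromeric histone (-2.84), the spindle protein DLGAP5 (-2.83), PARPBP (-2.81) and TOP2A (-2.76) also belong here. The falls outside the cell cycle and lipids were GIMAP7, a GTPase known from lymphocytes (-3.02), and IL1RL1, the receptor of interleukin 33 (-2.96 ± 0.19). All 15 falls were between 6.77 and 11.4 times, and 13 of them ran through both steps.

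**Figure D1:**
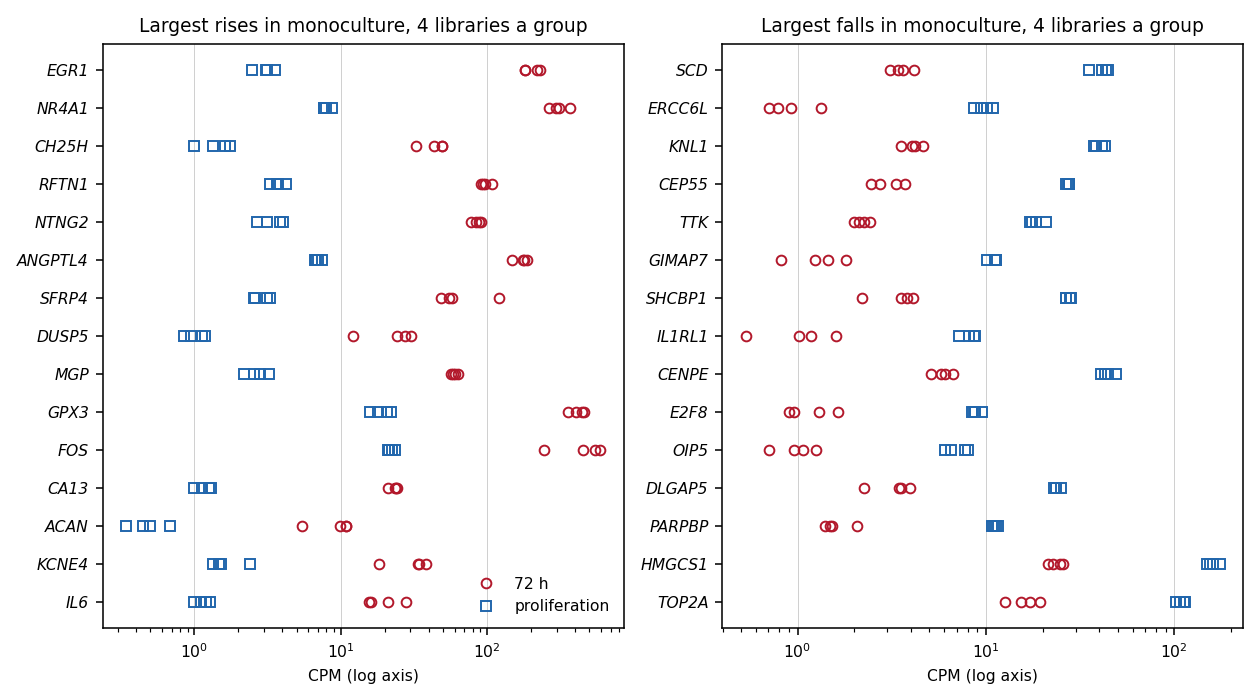
CPM in each library (log axis) of the 15 genes with the largest rises (left) and the 15 with the largest falls (right), circles for the 4 libraries at 72 h and squares for the 4 in proliferation. The groups do not overlap in any of the 30 genes, as the naming rule requires, and EGR1 at 181 to 229 CPM at 72 h lies farthest from its proliferation values of 2.48 to 3.58 CPM.

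The cell cycle genes fell almost as a whole. All 57 genes of mitosis and the kinetochore fell, 55 of them by at least 2-fold, with a median of -2.23 (all genes tested: 0.003), and all 57 also fell with library sizes alone and without 72 h replicates 3 and 4. TOP2A, the topoisomerase that untangles chromosomes, was at 15.3, 19.3, 12.6 and 17.1 CPM at 72 h, against 113, 107, 114 and 102 CPM in proliferation (log2 -2.76 ± 0.079, adjusted p = 1.82e-23). MKI67, the proliferation antigen Ki-67, was at 22.7, 24.9, 16.9 and 20.8 CPM at 72 h, against 104, 108, 110 and 112 CPM in proliferation (log2 -2.33 ± 0.090). At 24 h TOP2A, at 92.2 to 110 CPM, did not pass the test against proliferation (edgeR adjusted p = 0.478), and MKI67, at 118 to 145 CPM, was above it (log2 0.33). For the whole mitosis list the early step had a median of -0.02, with 13 genes higher and 16 lower (against 34.3% and 34.2% of all genes tested), while in the late step all 57 fell (against 26.6% of all genes tested), with a median of -2.15.

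DNA replication genes were lower in 44 of 46 cases, 28 by at least 2-fold (median -1.14). RRM2, the small subunit of ribonucleotide reductase, which supplies deoxynucleotides, was at 16.2, 16.4, 13.9 and 15.5 CPM at 72 h, against 77.8, 76.8, 77.8 and 73.8 CPM in proliferation (log2 -2.30 ± 0.082). UHRF1, which carries DNA methylation through replication, fell by 2.28, the polymerase subunit POLE2 by 2.02 and the origin protein ORC1 by 1.97. Unlike the mitosis list, 25 of these 46 genes had fallen by 24 h (against 34.2% of all genes tested; median of the early step -0.28), before 41 fell in the late step (against 26.6%). Of 18 genes of homologous recombination repair 17 fell, 12 by at least 2-fold, among them the nuclease EXO1 (-2.73), BRIP1 (-2.34), FANCI (-2.34) and BRCA1, at 5.15 to 8.40 CPM at 72 h against 28.3 to 32.6 CPM in proliferation (-2.11 ± 0.10).

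Regulators of the cycle did not move together. Of 28 genes that act in cell cycle exit 15 rose and 8 fell (9 and 12 with library sizes alone). BTG2, an antiproliferative cofactor, was at 37.7 CPM in replicate 3 and up to 86.7 CPM in the other three libraries at 72 h, against 9.94, 11.3, 12.2 and 10.6 CPM in proliferation (log2 2.62 ± 0.14), and CDKN2B, an inhibitor of the G1 cyclin-dependent kinases, had reached its 72 h level by 24 h (log2 1.18). CDKN1A, the inhibitor p21 that holds differentiating myoblasts out of the cycle, was at 381, 378, 351 and 363 CPM at 72 h, against 218, 233, 217 and 238 CPM in proliferation (log2 0.70 ± 0.053), and its rise was early (0.63 at 24 h). CDKN1B, the related inhibitor p27, was at 18.2 to 23.7 CPM at 72 h and 21.3 to 24.7 CPM in proliferation and did not pass the test (log2 -0.13, adjusted p = 0.108). The falls included LIN9 and LIN54, parts of the complex that activates mitotic genes (-1.86 and -0.70), and the pocket protein RBL1 (-1.39). Among G1 factors E2F1 (-1.13), SKP2 (-1.12) and CDK2 (-0.95) fell, while MYC, a growth-promoting factor usually repressed on differentiation, was at 68.0 to 74.6 CPM at 72 h against 35.0 to 40.7 CPM in proliferation, a late rise (log2 0.90 ± 0.054). CCND1, cyclin D1, fell at 24 h (log2 -0.59) and then passed its starting level, at 59.6 to 69.9 CPM at 72 h against 42.9 to 46.0 CPM in proliferation (0.48).

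The muscle genes that could be read showed partial and unequal change. NCAM1 (ENSBTAG00000005710, chromosome 15 at 23472469 to 23833218), an adhesion molecule of satellite cells and myoblasts, was at 45.3, 49.4, 47.3 and 44.4 CPM at 72 h, against 7.89, 7.88, 7.65 and 7.30 CPM in proliferation (log2 2.60 ± 0.069, adjusted p = 2.38e-24). ITGA7 (ENSBTAG00000012897, chromosome 5 at 57548782 to 57572012), the muscle laminin receptor, was at 162, 161, 148 and 151 CPM at 72 h, against 36.8, 34.2, 35.9 and 33.6 CPM in proliferation (log2 2.15 ± 0.084). Most of its rise was early, to 121 to 140 CPM at 24 h, whereas most of the rise of NCAM1 came after 24 h, when it stood at 12.2 to 14.2 CPM. FGFR1, a growth factor receptor of satellite cells, rose by 1.43 and the heparan sulfate proteoglycan SDC4 by 0.70. PAX3, the paralogue of PAX7 in muscle progenitors, was at 19.3, 19.2, 14.8 and 16.3 CPM at 72 h, against 33.0, 36.4, 33.9 and 34.4 CPM in proliferation, a late fall (log2 -0.97 ± 0.069). Of 21 symbols on the satellite cell list 11 were listed, and 6 rose and 2 fell (6 and 5 with library sizes alone).

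Of 51 sarcomere and contractile symbols 13 were listed, 7 of which rose, 5 by at least 2-fold, and 2 fell (7 and 4 with library sizes alone). DES, the muscle intermediate filament desmin, was at 156, 144, 156 and 137 CPM at 72 h, against 72.5, 70.3, 70.9 and 74.7 CPM in proliferation (log2 1.04 ± 0.062), with similar steps before and after 24 h (0.49 and 0.55). XIRP1, an actin-binding repeat protein of striated muscle, was at 5.54 to 7.98 CPM at 72 h and 1.37 to 2.49 CPM in proliferation (log2 1.88 ± 0.20) after a fall at 24 h. The embryonic and atrial myosin light chain MYL4 (1.59) and the titin cap TCAP (1.54) rose at levels under 5 CPM. ACTA2, the smooth muscle actin that myoblasts also make, was at 9520, 9281, 11279 and 9212 CPM at 72 h, against 11421, 11294, 11365 and 11391 CPM in proliferation (log2 -0.21 ± 0.054), so the highest 72 h library lies just under the lowest proliferation library.

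Regulators of myogenesis, a list of both activators and inhibitors, divided into 13 lower and 7 higher of 27 (21 and 3 with library sizes alone). Among the 22 with a mean of at least 10 CPM, 9 were lower and 7 higher, and the median was 0.04, against -0.21 for all 27. HDAC9, a class IIa deacetylase that represses MEF2, was at 16.1, 16.4, 25.4 and 15.7 CPM at 72 h, against 74.1, 68.7, 71.4 and 66.5 CPM in proliferation (log2 -1.94 ± 0.11). MEF2C itself, a late myogenic factor, fell by 1.35 at levels of 1.79 to 2.12 CPM at 72 h against 4.59 to 5.40 CPM in proliferation. ID1, which keeps E proteins from pairing with myogenic factors, fell by 2.11 ± 0.24, and its relative ID3 was at 47.6 to 73.3 CPM at 72 h against 75.1 to 78.8 CPM in proliferation (-0.37), above its 24 h level of 32.6 to 40.8 CPM. The E protein TCF3 rose early (0.53). Fusion and cell contact genes split evenly, 7 higher and 7 lower of 17 (4 and 10 with library sizes alone), with the receptor BOC up by 0.96 and its partner CDON down by 0.56. In the dystrophin complex and calcium handling 13 of 18 genes rose and 2 fell (6 and 7 with library sizes alone), led by dystrobrevin beta, DTNB (1.51), the calcium store protein CASQ1 (1.16) and the acetylcholine receptor subunit CHRNB1 (1.08). Among the 11 with a mean of at least 10 CPM, 7 rose and 2 fell, none by 2-fold, and the median was 0.16, against 0.42 for all 18.

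**Figure D2:**
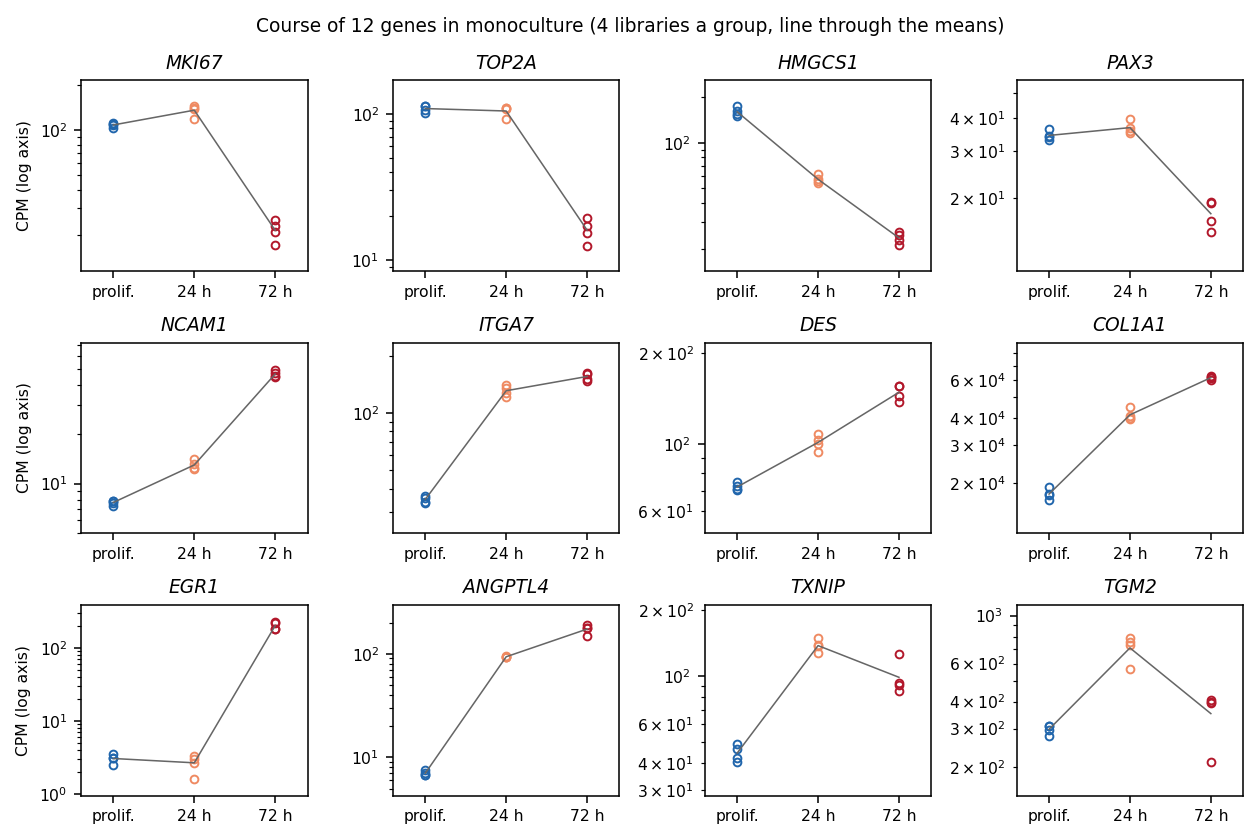
CPM (log axis) of 12 genes in the 4 monoculture libraries of each time, with a line through the group means. TOP2A is at a like level at 24 h, MKI67 is slightly higher there, and both are far lower at 72 h, ITGA7 and ANGPTL4 make most of their rise by 24 h, EGR1 and NCAM1 rise mainly after it, and TGM2 is high at 24 h, at 566 to 787 CPM, and lower again at 72 h, at 209 to 409 CPM.

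Most matrix genes rose. COL1A1 (ENSBTAG00000013103, chromosome 19 at 36457630 to 36474463), the main chain of type I collagen and the gene with the largest share of counts at 72 h, was at 61048, 62156, 62780 and 60219 CPM at 72 h, against 19205, 17888, 17602 and 16753 CPM in proliferation (log2 1.78 ± 0.040, adjusted p = 3.67e-26). COL1A2, its partner chain in the collagen trimer, was at 32349 to 39184 CPM at 72 h against 19611 to 21129 CPM in proliferation (0.77), and COL3A1 at 24930 to 33378 CPM at 72 h against 14380 to 15370 CPM in proliferation (0.89). Of 21 collagen genes 19 rose and 1 fell (17 and 1 with library sizes alone), with a median of 0.82. Only 3 of the rises reached 2-fold, COL8A2 being the largest (log2 3.15 ± 0.10), although 8 did so without 72 h replicates 3 and 4. The gene that fell was COL15A1, a basement membrane-associated collagen, at 207 to 257 CPM at 72 h against 602 to 635 CPM in proliferation (-1.49 ± 0.053), after a rise at 24 h.

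Basement membrane genes rose in 14 of 15 cases, 5 by at least 2-fold (median 0.97). With library sizes alone 2 reached 2-fold, and without 72 h replicates 3 and 4 it was 7. LAMA2, the laminin chain of the muscle basement membrane and a ligand of ITGA7, was at 39.8, 41.5, 41.7 and 37.8 CPM at 72 h, against 6.46, 7.13, 5.70 and 5.44 CPM in proliferation (log2 2.70 ± 0.089). Perlecan, HSPG2, rose early, by 1.51, and LAMA5 and LAMB2 rose by 1.09 and 1.07. The matricellular and elastic glycoproteins held 24 rises and 7 falls of 33, with 12 rises and 2 falls of at least 2-fold (19 rises and 11 falls in all with library sizes alone). FN1, fibronectin, was at 38062, 41729, 38554 and 35806 CPM at 72 h, against 10510, 10303, 10847 and 10824 CPM in proliferation (log2 1.86 ± 0.049). MFAP2, a protein of elastic microfibrils, rose late by 4.00 and TGFBI by 2.90 in both steps. ELN, elastin itself, was at 113 to 136 CPM at 72 h against 305 to 316 CPM in proliferation (-1.30 ± 0.067) after a rise at 24 h, and THBS2 (-1.26) and the large proteoglycan VCAN (-0.75) fell. THBS1 was at 10017, 10713, 18089 and 9492 CPM at 72 h and 8882 to 8955 CPM in proliferation (0.44), a rise that did not pass the test with library sizes alone (0.11).

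The enzymes that finish collagen rose with it, 23 of 27 being higher and 3 lower (17 and 6 with library sizes alone). LOXL4, a lysyl oxidase that crosslinks collagen, was at 3540, 3440, 3209 and 3345 CPM at 72 h, against 790, 717, 746 and 735 CPM in proliferation (log2 2.18 ± 0.053), and P4HA3, a prolyl hydroxylase subunit, rose by 2.35. PLOD1, a lysyl hydroxylase, rose by 1.06 and BMP1, the procollagen protease, by 1.00. Of 30 matrix proteases and their inhibitors 23 rose and 5 fell (18 and 9 with library sizes alone). The serpin SERPINF1, an inhibitor of angiogenesis, was at 342 to 401 CPM at 72 h against 37.4 to 42.9 CPM in proliferation (3.13 ± 0.073). The urokinase receptor PLAUR rose by 1.92. ADAMTS5, a protease of aggrecan and versican, fell by 1.96 ± 0.12. Among integrins and syndecans 13 of 19 rose and 5 fell (7 and 7 with library sizes alone), the collagen receptor ITGA11 (1.12) and SDC2 (1.31) against ITGAV (-1.14), ITGA1 (-0.97) and CD44 (-0.74).

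**Figure D3:**
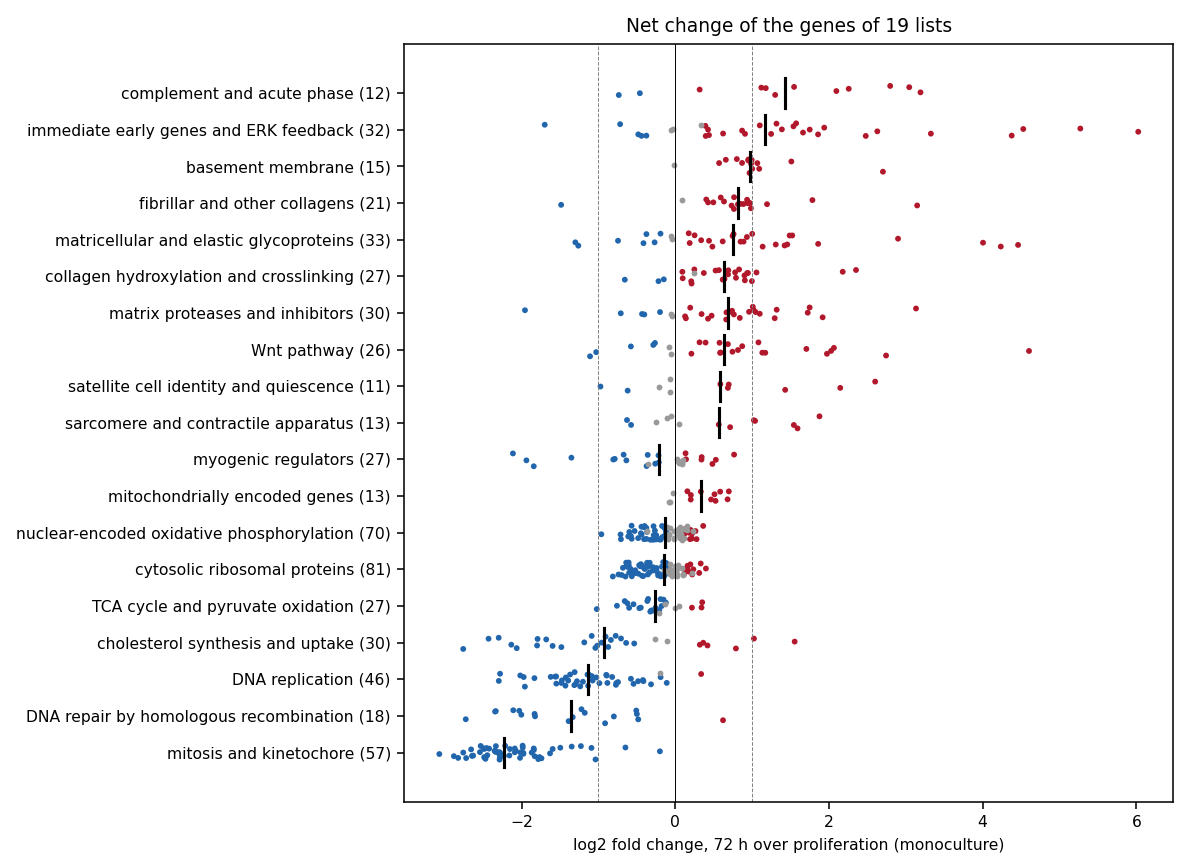
Log2 fold change from proliferation to 72 h of every tested gene of 19 lists (numbers of genes in brackets), red for called rises, blue for called falls, grey for genes not called, with the list median as a black bar and dashed lines at 2-fold. The mitosis list lies at the far left with a median of -2.23, and the immediate early and complement lists have the highest medians plotted, at 1.17 and 1.42.

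Signalling genes were led by the immediate early response. Of 32 immediate early and ERK feedback genes 24 rose and 5 fell, 17 rising by at least 2-fold (20 and 7 with library sizes alone, 14 of them 2-fold). The early step had a median of -0.13 and the late step 1.27, with 26 of 32 higher at 72 h than at 24 h, against 27.3% of all genes. ETV1, a transcription factor that ERK activates, went against the list at 13.6 CPM on average at 72 h against 44.1 CPM in proliferation (log2 -1.70 ± 0.075). In the IGF axis 9 of 13 genes rose and 3 fell. IGFBP3, which carries IGFs outside the cell, was at 50.1, 50.2, 35.1 and 47.0 CPM at 72 h, against 2.30, 2.24, 3.17 and 3.04 CPM in proliferation (4.08 ± 0.15), the adaptor IRS2 rose by 1.97 and the insulin receptor INSR by 1.83, while IGFBP5, often induced in differentiating myoblasts, fell by 0.65 ± 0.16 and IGF1R by 0.35.

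The Wnt pathway list held 19 rises and 5 falls among 26 genes, with 9 rises of at least 2-fold. SFRP2, a secreted Wnt modulator, was at 3945, 3972, 3735 and 4049 CPM at 72 h, against 926, 964, 939 and 924 CPM in proliferation (log2 2.06 ± 0.045), and the ligand WNT9A (2.74) and the receptor FZD1 (2.03) rose, while the non-canonical ligand WNT5A (-1.11) and the antagonist DKK2 (-1.03) fell after rises at 24 h. The TGF-beta and BMP list divided into 19 higher and 16 lower of 40 (13 and 19 with library sizes alone). Among the 31 with a mean of at least 10 CPM, 16 were higher and 13 lower, with 3 rises of at least 2-fold, against 6 in the whole list. The ligands BMP6 (3.19 ± 0.13) and BMP2 (1.55) and the antagonists CHRD (1.68) and FSTL3 (1.30) rose, and GREM1, another BMP antagonist, was at 92.8 to 105 CPM at 72 h against 324 to 363 CPM in proliferation (-1.78 ± 0.073), with a log2 of -1.58 reached by 24 h. Of 20 genes of FGF, HGF, PDGF and EGF signalling 10 rose and 5 fell (3 and 10 with library sizes alone, 7 and 6 without 72 h replicates 3 and 4). Among the 16 with a mean of at least 10 CPM, 9 rose and 4 fell, none of the falls reaching 2-fold. VEGFA rose by 1.66 and the glypican GPC1 by 1.52, whereas HGF, the factor that wakes satellite cells, fell by 1.50 ± 0.28 and the receptors PDGFRA and PDGFRB by 0.52 and 0.46. Among YAP and SRF targets the matricellular CCN1 (1.49) and ANKRD1 (1.35) rose and YAP1 itself fell (-0.86), with 13 higher and 9 lower of 25 (9 and 13 with library sizes alone). Of 20 Notch pathway genes 5 rose and 5 fell (4 and 12 with library sizes alone, 8 and 5 without 72 h replicates 3 and 4). NOTCH2 rose by 0.98 and the targets HEYL and HES1 fell by 0.62 and 0.61.

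Most sterol synthesis genes fell, while the lipid droplet gene PLIN2 rose. Of 30 genes of cholesterol synthesis and uptake 22 fell and 6 rose (24 and 3 with library sizes alone), 14 falling by at least 2-fold (median -0.93). HMGCS1 (ENSBTAG00000011839, chromosome 20 at 31431059 to 31456871), which makes HMG-CoA at the head of the mevalonate pathway, was at 21.2, 24.9, 22.8 and 25.8 CPM at 72 h, against 149, 174, 155 and 161 CPM in proliferation (log2 -2.76 ± 0.056, adjusted p = 2.83e-27), with like steps before and after 24 h (-1.48 and -1.28). The epoxidase SQLE fell by 2.43, INSIG1, a brake of the pathway, by 2.30, and the sterol oxidase MSMO1 by 2.13. SCAP, the sterol-sensing escort of SREBP, rose by 1.02 and the oxysterol receptor NR1H2 by 0.79. In fatty acid metabolism 20 of 40 genes fell and 12 rose. PLIN2, which coats lipid droplets, was at 243, 257, 219 and 242 CPM at 72 h, against 50.5, 48.2, 48.5 and 49.7 CPM in proliferation (2.29 ± 0.048), and the lipase PNPLA2 rose by 1.29. The fatty acid-binding proteins FABP3 (-2.04) and FABP5 (-1.12) fell.

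On the TMM scale mitochondrial genes split by the genome that encodes them. Of 13 genes encoded in mitochondrial DNA 10 rose, with COX1 at 13012, 12477, 11862 and 11104 CPM at 72 h, against 7491, 7736, 7551 and 7112 CPM in proliferation (log2 0.70 ± 0.050). The list rose early (median 0.69) and came part of the way back late (-0.32), and with library sizes alone 6 rose and 4 fell. Of 70 nuclear genes of oxidative phosphorylation 37 fell and 11 rose (60 and 0 with library sizes alone, 39 and 7 without 72 h replicates 3 and 4). Of 27 genes of the TCA cycle and pyruvate oxidation 20 fell and 3 rose (25 and 0 with library sizes alone). Cytochrome c, CYCS, was at 66.9 to 74.6 CPM at 72 h against 133 to 141 CPM in proliferation (-0.96 ± 0.046), and the dehydrogenase subunit DLD at 49.1 to 59.9 CPM at 72 h against 103 to 114 CPM (-1.02). The changes were small, with log2 values from -0.96 to 0.36 in the oxidative phosphorylation list and from -1.02 to 0.35 in the TCA list. Of 34 glycolysis and hypoxia genes 16 were called higher and 10 lower (9 and 15 with library sizes alone), with the glycolytic activator PFKFB3 (1.61), NDRG1 (1.30) and the glucose carrier SLC2A3 (1.24) up by over 2-fold.

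Ribosomal protein genes moved little, and single chaperone and stress genes moved further. Of 81 genes of cytosolic ribosomal proteins 48 fell and 11 rose, with a median of -0.15, and with library sizes alone 73 fell. Most of the falls were early: 66 of the 81 were lower at 24 h (against 34.2% of all genes tested), and 35 were called higher in the late step (against 27.3%). RPL39 fell by 0.74 and RPL22 by 0.68. Among cytosolic heat shock proteins 18 of 27 fell and 7 rose (21 and 2 with library sizes alone). The cofactor HSPH1 was at 52.7, 48.5, 57.9 and 52.2 CPM at 72 h, against 189, 194, 179 and 183 CPM in proliferation (log2 -1.82 ± 0.046), and CRYAB, a small heat shock protein abundant in muscle, at 87.8, 82.8, 197 and 88.1 CPM at 72 h, against 344 to 419 CPM (-1.73 ± 0.15). In the endoplasmic reticulum HSPA5, the chaperone BiP, was at 2211, 2116, 1722 and 2077 CPM at 72 h, against 815, 836, 800 and 774 CPM in proliferation (1.33 ± 0.053), and CREB3L1, an activator of collagen genes, rose by 1.25, while calreticulin, CALR, fell by 0.60. Of 30 genes of the amino acid and ATF4 response 17 rose and 9 fell (8 and 16 with library sizes alone), led by DDIT4, an inhibitor of mTORC1 (2.19 ± 0.15), and PPP1R15A (2.16). Of 38 FoxO and autophagy genes 23 were higher and 10 lower (16 and 14 with library sizes alone). SESN2, another brake on mTORC1, rose by 1.38, TXNIP, an arrestin that limits glucose uptake, by 1.15, and the muscle ubiquitin ligase FBXO32 (atrogin-1) by 0.60 ± 0.18, a rise that did not pass the test with library sizes alone (0.28).

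Complement genes rose, and interferon-induced genes fell more often than they rose. Of 12 complement and acute phase genes 10 rose and 2 fell, 9 rising by at least 2-fold (median 1.42). With library sizes alone 6 reached 2-fold, and without 72 h replicates 3 and 4 it was 7. Clusterin, CLU, was at 94.8, 89.6, 105 and 97.5 CPM at 72 h, against 9.44, 11.8, 9.18 and 11.7 CPM in proliferation (log2 3.19 ± 0.073), and the protease C1S at 33.4 to 43.7 CPM at 72 h against 7.33 to 8.34 CPM (2.26). The central component C3 was at 19.8, 15.3, 37.2 and 19.0 CPM at 72 h, against 2.69 to 4.02 CPM in proliferation (2.80 ± 0.27), and factor B, CFB, at 2.51, 2.48, 23.6 and 6.80 CPM at 72 h, against 0.748 to 1.30 CPM in proliferation (3.04 ± 0.71). CFB rested on replicates 3 and 4: its log2 fold change was 1.84 without replicate 3 and 1.29 without both, where it no longer passed the test. Of 31 interferon-induced genes 14 fell and 4 rose (24 and 1 with library sizes alone), and 13 were not called. Over all genes tested 37.4% were lower and 37.6% higher. The double-stranded RNA kinase EIF2AK2 fell by 1.16 ± 0.12. Cytokines and NF-kB targets went both ways, 19 higher and 12 lower of 40 (12 and 18 with library sizes alone), with LIF, a cytokine of the IL6 family, up by 2.86 and the NF-kB cofactor NFKBIZ by 1.68, and IL15 (-1.73) and the chemokine CXCL12 (-1.11) down. Among the 24 with a mean of at least 10 CPM, 3 rises and 4 falls reached 2-fold, against 9 and 7 in the whole list. Of 20 glucocorticoid and clock genes 9 rose and 4 fell (5 and 9 with library sizes alone): PER1 (1.87) and TSC22D3 (1.39) rose and CLOCK fell (-1.25).

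The 24 h libraries show when these changes came. Between 24 h and proliferation 8179 genes differed (68.5%), and between 72 h and 24 h 6430 (53.9%). Both steps share libraries with the net change, so the classes are a description. Of the 8957 genes of the net change, 3250 (27.2% of all genes tested) moved early, with no call in the late step. The lack of a late call does not show that such a gene held its level. Another 1639 (13.7%) moved late and 2279 (19.1%) in both steps. Of the rest, 843 (7.06%) came part of the way back, 494 (4.14%) turned past their start and 452 (3.79%) passed neither step on its own. Among the 768 rises of at least 2-fold, 362 used both steps, 168 were early and 150 late, and among the 622 falls 369 used both, 132 were late and 61 early. The median rise of at least 2-fold had covered 52.6% of its net log2 change by 24 h, and the median fall 31.4%.

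**Figure D4:**
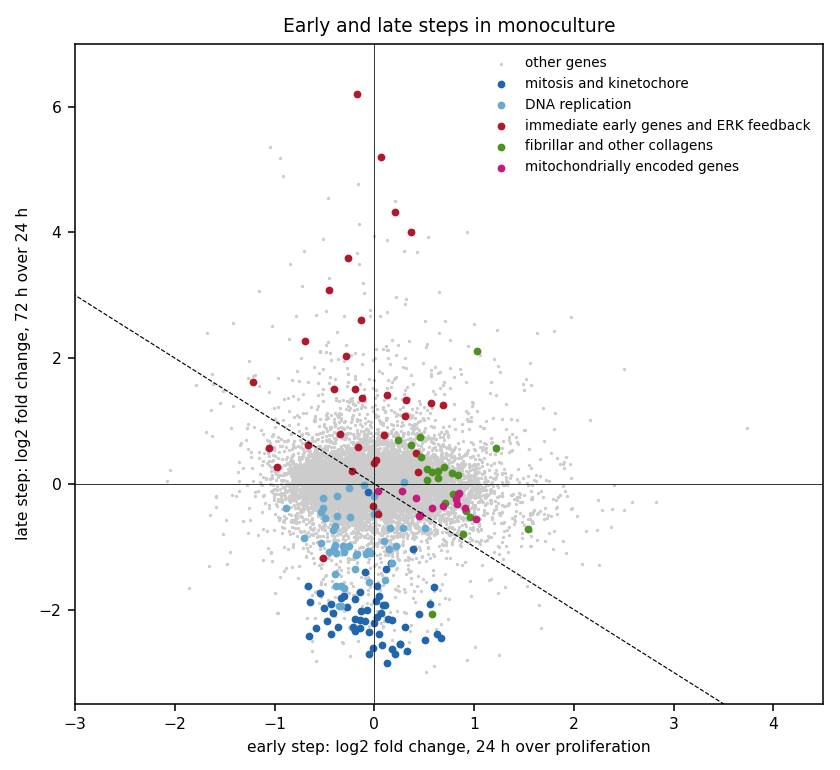
Early step (24 h over proliferation, log2, x axis) against late step (72 h over 24 h, log2, y axis) of all genes in grey and of 5 lists in colour. On the dashed line the 2 steps cancel, which is where there-and-back genes lie. Mitosis genes sit near 0 on the x axis and around -2.15 on the y axis, immediate early genes rise along the y axis, and mitochondrially encoded genes lie right of and below 0.

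A further 946 genes (7.92%) went there and back, called in both steps in opposite directions without a net call, 476 of them up first and 470 down first. TGM2, a transglutaminase that crosslinks matrix proteins, averaged 298 CPM in proliferation, 709 CPM at 24 h and 352 CPM at 72 h, where replicate 3 was at 209 CPM and the other three libraries at 393 to 409 CPM. CYP26B1, which breaks down retinoic acid, averaged 11.4, 22.0 and 11.7 CPM in that order of time, and the epoxygenase CYP2J2, CC2D2B and NAV2 followed the same course. OGN, the small proteoglycan osteoglycin, lay between 11.8 and 13.8 CPM in proliferation, 2.76 and 5.15 CPM at 24 h, and 12.8 and 16.7 CPM at 72 h. The growth factors FGF7 and PDGFD, the prostaglandin synthase PTGES and the gene of carboxypeptidase M also dipped at 24 h and returned. Genes that came part of the way back included the matrix protease ADAMTS6 (log2 2.25 at 24 h, 0.96 net) from above, and the membrane glycoprotein GPNMB (-1.54 and -0.26), the hyaluronidase CEMIP (-1.12 and -0.32) and PERP (-1.63 and -0.87) from below. Among the genes that turned, those named by rule that first rose included IQGAP3 (1.01 at 24 h, -1.59 net), CCNF (0.93 and -1.87) and TROAP (1.25 and -1.47). Those that first fell included the proteoglycan ASPN (-1.42 and 1.14), the ERK-responsive factor ETV5 (-1.22 and 0.40) and the magnesium channel TRPM6 (-1.05 and 0.41).

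The net change was set against that of coculture, which uses other libraries throughout. In coculture 7203 genes (60.3%) differed between 72 h and proliferation (4368 with lane as a term), and the net change itself differed between monoculture and coculture in 7437 genes (62.3%), 3697 with a more positive change in monoculture (31.0%) and 3740 with a more negative one (31.3%). At 2-fold the counts were 239 (2.00%) and 367 (3.07%). The coculture 72 h libraries were all in lane 7, the monoculture libraries in lane 6. With lane as a term, estimated from the coculture 24 h libraries, which were split between lanes, the net change differed in 5931 genes. The label code of unknown meaning was 2 in every coculture library, so between proliferation and 72 h it changed in monoculture alone. Its part in the difference between cultures cannot be told apart from that of coculture.

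The fall of the cell cycle genes from proliferation to 72 h was deeper in monoculture. A difference in net change takes in the levels at both times. Whether the cultures differed in proliferation or at 72 h was not tested here. The mitosis list had a median net change of -2.23 in monoculture and -1.22 in coculture, and the difference was called negative in 53 of 57 genes (50 with lane as a term), against 31.3% of all genes tested. For TOP2A the net change was -2.76 ± 0.079 in monoculture and -1.02 in coculture (difference -1.74, adjusted p = 9.63e-14), and for HMGCS1 it was -2.76 and -1.22 (difference -1.54). ITGA7, DES and most listed sarcomere genes had a more positive change in monoculture. ITGA7 changed by 2.15 in monoculture and by 0.30 in coculture (difference 1.85, adjusted p = 4.33e-13), DES by 1.04 and -0.54 (difference 1.58). A more positive change in monoculture was called in 9 of the 13 listed sarcomere genes (8 with lane as a term), against 31.0% of all genes tested. Of 21 collagens 15 had a more positive change in monoculture, against the same 31.0% (15 with lane as a term, 9 with library sizes alone), COL1A1 with 1.78 and 1.07 (difference 0.71).

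Among genes named by rule, the largest differences with a more positive change in monoculture were those of DUSP5 (net change 4.53 in monoculture, 1.46 in coculture), the hexokinase HK3 (0.90 and -1.54), XIRP1 (1.88 and -0.41), ADAMTS14, a procollagen protease (0.69 and -1.50), and the adenylyl cyclase ADCY5 (1.68 and -0.35). In the other direction stood the chemokine CXCL5, which fell in monoculture and rose in coculture (-1.06 and 2.49, difference -3.56, adjusted p = 2.68e-13), SOD2, the mitochondrial superoxide dismutase (0.30, not called, and 3.28), ADAMTS5 (-1.96 and 0.43), the viral RNA sensor IFIH1 (-0.81 and 1.46) and SCD (-3.51 and -1.28). Of 31 interferon-induced genes 28 had a more negative change in monoculture (23 with lane as a term), against 31.3% of all genes tested, and the list medians were -0.26 and 0.62. PDGFRA, a receptor that marks fibro-adipogenic progenitors, was lower at 72 h in monoculture (-0.52) and higher in coculture (1.01).

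**Figure D5:**
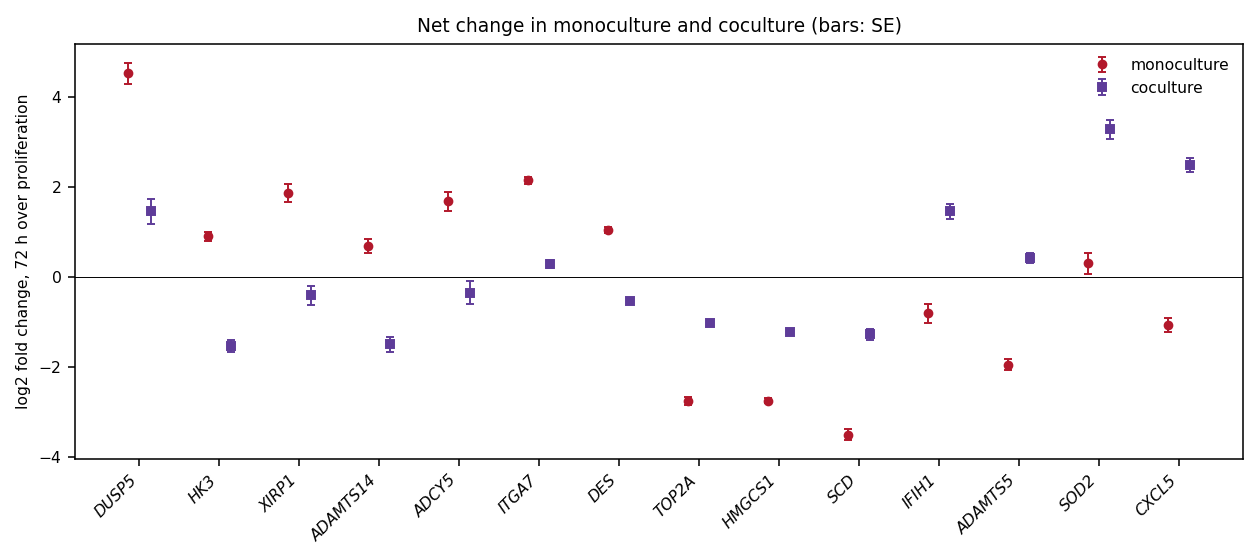
Net log2 fold change (72 h over proliferation, bars for SE) of 14 genes in monoculture (circles) and coculture (squares): the 10 genes with the largest differences in net change, and ITGA7, DES, TOP2A and HMGCS1. DUSP5 and ITGA7 rise more in monoculture, TOP2A and HMGCS1 fall more, and CXCL5 and SOD2 lie at -1.06 and 0.30 in monoculture and at 2.49 and 3.28 in coculture.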

How the data were processed

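RNA was sequenced from bovine satellite cells in monoculture and coculture, 24 labelled libraries in 6 groups of 4. The authors' whole-number gene counts were used as deposited; the submitters' processing notes name FastQC, STAR, RSEM and DESeq2 without versions, and no source here names the genome build. The count table holds 36 columns, of which 12 carry no label here and were not used. Gene symbols and coordinates came from a deposited table of the authors' log2 fold changes, whose values were not used. 893 of the 11937 genes lack a symbol, and 140 symbols belong to more than 1 gene; reads that fall in near-identical genes may have been divided among them.

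Counts were tested with edgeR 4.0.16 (R 4.3.3; quasi-likelihood test, TMM factors, filterByExpr, which removed no gene, 18 residual degrees of freedom) in 1 fit to all 24 libraries with 1 mean per group and no covariate, and p-values were adjusted over 11937 genes. The pipeline was tested on simulated data. Levels are TMM-scaled CPM, not divided by length, so they are compared within a gene. SE was taken as the size of the log2 fold change divided by the root of its F statistic. Shares of counts were compared with exact permutation tests (SciPy 1.17.1). A gene is early or late by which of its steps passed the test. Alternatives were DESeq2 1.42.0, other scaling and filters, lane, a replicate block, and libraries left out.

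The members, the 54 gene lists and the tests were chosen with earlier results of these data known. Genes were named by rule: the 15 largest rises and 15 largest falls with at least 5 CPM in the higher group, a symbol of 1 gene and no overlap between groups; up to 5 per direction of genes that returned, partly returned or turned, and of those with the largest difference from coculture; up to 4 per direction of each list; the 10 most abundant genes at 72 h; and a fixed set of muscle and cell cycle genes. 1 gene that the rule names is not reported here. Promoter motifs were not examined.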

Additional observations from a re-analysis of the deposited data

Results flagged for a closer look

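Of 591 groups of 4 libraries examined (the named genes at 72 h, 24 h and in proliferation, and the shares of counts), 38 (6.43%) had 1 library whose gap to the nearest of the others exceeded Dixon's critical share of the group's range at the 95% level, where chance gives about 1 in 20. Of these, 15 were in 72 h replicate 3. The 72 h replicate 2 library lay below the other three libraries of its group in CASQ1 at 8.40 CPM. The 72 h replicate 3 library lay above the other three libraries of its group in ACTA2 at 11279 CPM, CCND1 at 69.9 CPM, COL3A1 at 33378 CPM, CRYAB at 197 CPM, DKK2 at 11.1 CPM, HDAC9 at 25.4 CPM, MFAP2 at 38.2 CPM, MYL4 at 4.44 CPM, P4HA3 at 35.8 CPM, SERPINF1 at 401 CPM, SFRP4 at 120 CPM and THBS1 at 18089 CPM and below them in CA13 at 21.1 CPM, CDKN2B at 21.1 CPM and TGM2 at 209 CPM. The 24 h replicate 1 library lay above the other three libraries of its group in ACTA2 at 14560 CPM, ANKRD1 at 333 CPM, CALR at 994 CPM and PLAUR at 65.9 CPM and below them in ADAMTS5 at 5.15 CPM, CCND1 at 24.2 CPM, CCNF at 27.7 CPM and TOP2A at 92.2 CPM. The 24 h replicate 2 library lay above the other three libraries of its group in LIN9 at 7.57 CPM. The 24 h replicate 3 library lay above the other three libraries of its group in PDGFRA at 52.0 CPM. The 24 h replicate 4 library lay above the other three libraries of its group in ETV5 at 3.33 CPM and WNT5A at 96.9 CPM and below them in NR1H2 at 54.0 CPM. The proliferation replicate 1 library lay above the other three libraries of its group in ETV1 at 47.4 CPM and KCNE4 at 2.42 CPM. The proliferation replicate 2 library lay above the other three libraries of its group in BOC at 4.44 CPM and CXCL5 at 202 CPM and below them in C1S at 7.33 CPM and COL15A1 at 602 CPM. The proliferation replicate 3 library lay below the other three libraries of its group in the carboxypeptidase M gene at 15.3 CPM. The proliferation replicate 4 library lay above the other three libraries of its group in VCAN at 1102 CPM. Collagen genes took 14.5% of counts in 24 h replicate 3, above the other three 24 h libraries (13.5 to 13.6%).

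The net change differed by over 2 on the log2 scale between monoculture and coculture, by edgeR's test of that difference, in 10 named genes. The difference, monoculture minus coculture, was positive in DUSP5 (3.07), HK3 (2.44), XIRP1 (2.28), ADAMTS14 (2.19) and ADCY5 (2.04) and negative in SCD (-2.23), CXCL5 (-3.56), SOD2 (-2.98), ADAMTS5 (-2.38) and IFIH1 (-2.27).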

How the results depend on the processing

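With library sizes alone the rises and falls of at least 2-fold numbered 397 and 1429, and with genes of at least 10 CPM, which leaves fewer genes, 343 and 364, with 1028 late and 218 gradual genes; apart from the fewer genes of that filter, the cause was not tested. Single log2 changes that reversed with library sizes alone were those of CCN3 (-0.14) and ENSBTAG00000060382 (-0.16), 2 of the 10 most abundant genes at 72 h; the second also reversed without both 72 h libraries rich in ribosomal RNA (-1.31), without 72 h replicate 3 (-0.30) and without 72 h replicate 4 (-0.039). The nuclear ribosomal RNA share, 72 h minus proliferation, reversed to 0.077 and 0.179 percentage points without 72 h replicates 1 and 2, within a range of -0.441 to 0.179; for ENSBTAG00000060382 the range was -0.30 to 0.52. Of 4061 single-gene comparisons over 242 results, 4050 kept direction and side of the threshold. Most of these genes were named for the size of their change, so this count does not speak for genes in general. Of the 8957 genes called in the net change, 7140 were also called with library sizes alone, 6807 of them in the same direction. Leaving out 1 library at a time gave 8609 to 8833 called genes for the net change (733 to 788 rises and 610 to 645 falls of at least 2-fold), 7775 to 7947 for the early step, 5986 to 6332 for the late step and 7074 to 7430 for the difference from coculture. Sample numbers did not pair the libraries (correlations of same-numbered deviations from -0.0642 to -0.00832), and with the replicate block 8917 genes were called in the net change. DESeq2 called 8827. Depth limits the genes near 1 CPM, where a few counts set the level.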

Other observations

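On the TMM scale some gene groups showed little or divided net change at 72 h against proliferation. Genes of nucleotide synthesis and one-carbon metabolism, which feed DNA replication, fell in 16 of 24 cases and rose in 5 (20 and 3 on the scale of library sizes alone). Of 49 lysosomal genes 23 were higher and 15 lower, a balance that turned to 9 and 23 with library sizes alone, and of 20 p53 targets 10 were higher and 6 lower (8 and 10 on that scale). Proteasome genes were higher in 11 of 34 cases and lower in 15, but 1 was higher and 29 lower with library sizes alone, and 7 and 17 without 72 h replicates 3 and 4. NRF2 and glutathione genes were higher in 9 and lower in 14 of 36 cases (7 and 27 on the library size scale), endoplasmic reticulum chaperones in 7 and 11 of 26 (5 and 20), and class I antigen presentation genes in 5 and 5 of 13 (3 and 7). Ribosome biogenesis genes divided into 21 higher and 21 lower of 56 (7 and 35 on that scale), and aminoacyl-tRNA synthetases into 8 and 8 of 20 (2 and 16). Small leucine-rich proteoglycans rose in 5 of 8 cases and none fell, although 3 rose and 2 fell with library sizes alone, and 1 fell without 72 h replicates 3 and 4. Of the other marker lists, 8 of 15 adipocyte, 6 of 15 bone and cartilage and 4 of 12 Schwann and neural markers were listed, with 4, 3 and 2 rises and 3, 2 and 2 falls in that order. The shares called over all genes were 37.6% higher and 37.4% lower.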
